A study of Mus musculus with 9 samples.

Results

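The comparison described here set 3 hearts of calcineurin transgenic mice against 4 hearts of wild type mice, 7 of the 9 hearts of the series. The hearts were chosen by their labels: transgenic or wild type, and vehicle as treatment. All mice were C57BL/6. The transgenic mice carried MHC-CnA Tg, in which the α-myosin heavy chain promoter, active in cardiomyocytes, drives the catalytic subunit of calcineurin. The wild type mice carried no transgene. Both groups received vehicle 3 times a week from 4 weeks of age, so vehicle dosing is shared and not part of the contrast. Transgenic heart 1 and wild type hearts 1 and 2 were labelled day 125, and transgenic hearts 2 and 3 and wild type hearts 3 and 4 day 158. The series' design text has treatment run to day 158, and for the 3 hearts at day 125 the sample labels were followed. Each heart has its own number in the labels, which do not say whether the numbers are animals, so p-values measure the spread between these samples. The 2 hearts of transgenic mice given JIB-04 entered no comparison here. The files list 43154 genes, and the 13305 with at least 1 FPKM (fragments scaled to transcript length and to the mapped total) in at least 2 of the 7 hearts were tested.

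Messenger RNA was read from heart tissue after a non-directional library preparation, in which strand is lost. Read totals are not given in the sources used here. The spacing of the lowest FPKM values, which reflects what 1 fragment is worth, gave depths relative to wild type heart 1, the shallowest. They were 1.25, 1.47 and 1.28 in transgenic hearts 1 to 3 and 1.15, 1.16 and 1.23 in wild type hearts 2 to 4. Every transgenic heart was thus deeper than every wild type heart. Genes above 0 numbered 21114 to 21505 in transgenic hearts and 20557 to 20879 in wild type hearts. Whether depth has a part in the differences of genes near 0 was not tested. Correlations of log2 values over the tested genes were 0.968 to 0.986 between transgenic hearts, 0.977 to 0.985 between wild type hearts and 0.922 to 0.946 between the groups. The first principal component (60.02% of the variance) separated the groups, and on the second (13.8%) transgenic heart 3 lay apart at -30.6, against 18.9 and 16.2 for the other transgenic hearts. That heart also differed in the values of mt-Atp6 and mt-Co3, which were listed at 28963.5 and 35807.1 FPKM there and at 0 in the other 6 hearts. In wild type heart 2, mt-Co1 was listed at 0 and at 16146.2 FPKM or more in the other 6, so these mitochondrial values are read as possible failed estimates. All 12 cardiomyocyte markers of the list were among the tested genes, and 0 of 6 markers of neighbouring lung and thymus reached the filter.

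Calcineurin is a phosphatase that is switched on by calcium and calmodulin. It removes phosphate from the NFAT transcription factors, which then enter the nucleus and act together with GATA4 and MEF2 on genes of heart growth. A permanently active catalytic subunit in cardiomyocytes is a standard model of pathological hypertrophy that goes on to heart failure, known for its enlarged hearts, fibrosis and arrhythmia. Natriuretic peptides, matrix genes and oxidative enzymes are its usual readouts. The results here concern the rest of the transcriptome, by gene class.

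Ppp3ca, which encodes the catalytic subunit of calcineurin, was at 1762, 1706 and 199 FPKM in transgenic hearts 1 to 3 and at 22.9, 23.4, 24.1 and 24.8 FPKM in wild type hearts 1 to 4. Its reads cannot be divided into those of the transgene and those of the mouse's own gene. The groups did not overlap, and transgenic heart 3 stood between them, far below the other 2 transgenic hearts and above every wild type heart. Ppp3ca had a log2 difference of 5.19 ± 0.71 (SE, adjusted p = 0.0022). Without transgenic heart 3 the log2 difference was 6.13 (adjusted p = 2.7e-07), and with day 158 hearts only, where heart 3 is 1 of 2 transgenic hearts, Ppp3ca was not called (4.52, adjusted p = 0.055). Rcan1, the calcineurin inhibitor that NFAT itself induces from an internal start site, was at 97.7, 140.0 and 72.8 FPKM in transgenic hearts 1 to 3 and at 25.6, 28.9, 26.7 and 29.4 FPKM in wild type hearts 1 to 4. Rcan1 had a log2 difference of 1.81 ± 0.21 (SE, adjusted p = 0.0010). The groups did not overlap for Rcan1 either, and transgenic heart 3 was again the lowest of its group.

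Promoter sequences from RefSeq (GRCm38.p6, 250 bases before to 50 bases after a start site, 5′ to 3′ on the gene's strand) are shown for both starts of Rcan1, because only the internal start is known as the one that NFAT drives, and for Ankrd1 and Amotl2, because both genes belong to the list of YAP targets described further on. Capitals mark the NFAT core GGAAA and the TEAD site CATTCC, each searched on both strands. The 2 motifs do not contain each other. The 4 windows are chr16:92466120-92466419, chr16:92400029-92400328 and chr19:36119795-36120094, all on the minus strand, and chr9:102717554-102717853 on the plus strand.
Rcan1, first start: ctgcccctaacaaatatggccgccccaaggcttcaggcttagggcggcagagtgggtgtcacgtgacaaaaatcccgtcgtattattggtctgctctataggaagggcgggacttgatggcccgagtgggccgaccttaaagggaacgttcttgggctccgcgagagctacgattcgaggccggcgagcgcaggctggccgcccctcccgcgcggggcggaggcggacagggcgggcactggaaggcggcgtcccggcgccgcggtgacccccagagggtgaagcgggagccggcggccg
Rcan1, internal start: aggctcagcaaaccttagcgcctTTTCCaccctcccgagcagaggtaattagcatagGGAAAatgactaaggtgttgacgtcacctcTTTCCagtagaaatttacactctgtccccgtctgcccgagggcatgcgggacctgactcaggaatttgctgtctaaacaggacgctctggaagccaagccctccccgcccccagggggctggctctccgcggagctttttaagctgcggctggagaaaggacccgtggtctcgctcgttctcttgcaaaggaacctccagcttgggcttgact
Ankrd1: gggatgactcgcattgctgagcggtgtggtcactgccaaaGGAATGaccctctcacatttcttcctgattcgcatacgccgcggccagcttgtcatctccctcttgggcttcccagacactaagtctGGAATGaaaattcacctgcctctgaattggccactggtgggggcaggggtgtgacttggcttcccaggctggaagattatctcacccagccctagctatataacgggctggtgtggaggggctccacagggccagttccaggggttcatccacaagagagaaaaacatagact
Amotl2: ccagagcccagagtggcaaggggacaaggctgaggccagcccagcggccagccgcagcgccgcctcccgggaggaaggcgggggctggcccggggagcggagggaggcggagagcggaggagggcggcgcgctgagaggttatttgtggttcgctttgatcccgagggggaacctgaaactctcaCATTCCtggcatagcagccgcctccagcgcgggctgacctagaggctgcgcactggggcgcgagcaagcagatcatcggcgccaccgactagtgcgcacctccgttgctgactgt
The window at the first start of Rcan1 held 0 copies of GGAAA and the window at its internal start held 3. Ankrd1 held 2 copies of CATTCC and Amotl2 held 1. Both motifs are common. GGAAA occurred in 61.4% of 32841 windows of this length (every gene and start in the table), in 58.8% of those of tested genes and in 57.9% of those of genes called higher by at least 2-fold. CATTCC occurred in 14.7%, 12.4% and 16.7% of the same 3 sets, and in 16.5% of the windows of genes called lower by at least 2-fold. The letters describe these windows and locate no bound site.

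Across the whole transcriptome the 2 groups differed in 4331 of 13305 genes (32.6%) at an adjusted p under 0.05 (limma's moderated test with a term for day, Benjamini-Hochberg). Of these, 2377 (17.9%) rose in the transgenic hearts and 1954 (14.7%) fell. These shares are the background against which the counts of each gene class below are read. Most of the called differences were under 2-fold. On the log2 scale, 939 rises and 670 falls were under 0.5, a further 924 rises and 958 falls lay between 0.5 and 1, and 840 genes (6.31%) changed at least 2-fold, 514 up (3.86%) and 326 down (2.45%). At the far end, 31 genes rose and 6 fell by 3 or more. In 5510 genes (41.4%) the hearts of the groups did not overlap, with all transgenic hearts higher in 3118 (23.4%) and lower in 2392 (18%). Differences are of log2(FPKM + 1), a scale that understates the change of genes at a few FPKM or less. A gene under 1 FPKM in every heart of 1 group, such as Edn3, Krt80 or Pde1c, passed the filter only through the other group. Means are given ± SD over 3 transgenic or 4 wild type hearts and log2 differences ± SE, with wild type first ("from") and transgenic second ("to"). Genes said to rise or fall had an adjusted p under 0.05. Those named with their values kept the call and the direction in each fit that left out 1 heart, changed the scaling, filter or variance prior or used day 158 hearts only, except where the same paragraph says otherwise. Counts over a list are from all 7 hearts. Where leaving out 1 heart moved a count of 5 or more by over 1.5 times, that count follows, and counts under 5 are too small to carry a direction. Such counts are not to be set against 17.9% and 14.7%, since the calls over all genes moved too. Without transgenic heart 1, 1285 of 13143 genes rose and 1020 fell, and without transgenic heart 2, 2016 rose and 1962 fell. Without wild type hearts 1 to 4, left out in turn, 1804, 1958, 1596 and 1536 rose and 1562, 1567, 1410 and 1361 fell. Over all genes, 1168 (674 higher and 494 lower) kept the call and the direction in every alternative but the replicate block with day. A gene that an alternative did not test, for example under a stricter filter, counts as having kept its call, named genes included.

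Falls outnumbered rises among the most abundant transcripts. Among the 240 genes with a mean over 300 FPKM, 10% rose and 54.6% fell, with a median log2 difference of -0.35. Among the 468 genes between 100 and 300 FPKM the shares were 14.96% and 32.1%. Between 3 and 10 FPKM, where 4179 genes lay, 18.7% rose and 11.9% fell. Genes with a mean under 1 FPKM are left out here, since such genes could pass the filter through the group in which they are high. The plot of called genes by level shows this order. The split also depended on the scaling between hearts. As deposited, the median difference of all tested genes was 0.04, and 54.9% of the called genes were higher. Mitochondrial genes took up to 29.8% of the summed FPKM of a heart. When each heart was scaled to the same total FPKM, the median moved by 0.19 and 81.3% of the called genes were higher (3895 higher, 895 lower). Median of ratios, quantile normalization and totals without mitochondrial and the 20 highest genes gave 47.4%, 46.4% and 59.1%. The list medians below are therefore to be read beside the all-gene median of 0.04. Those of the lysosomal, translation factor, MAP kinase, AMP-activated kinase, adhesion, nucleotide, polyamine, macrophage and cardiomyocyte lists changed sign between scalings and give no direction.

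**Figure D1:**
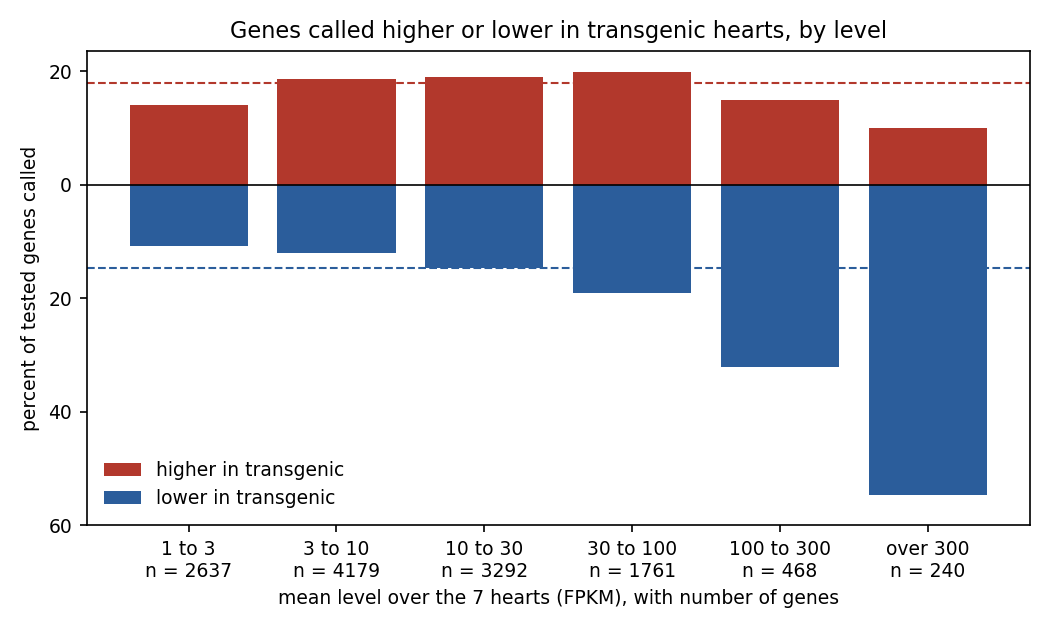
Percent of tested genes called higher (bars above 0) or lower (bars below 0) in transgenic hearts, by the mean level over the 7 hearts (taken on the log2 scale, 1 FPKM or more), with the number of genes in each class under the axis. Lower calls take 54.6% of the 240 genes over 300 FPKM, and dashed lines give the shares over all genes (17.9% and 14.7%).

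Protein-coding genes were called most often, 19.1% of 11356 higher and 15.2% lower. Of 163 long intergenic RNAs, 12.9% rose and 11.7% fell, and of 691 processed pseudogenes 6.1% rose and 6.9% fell. In all, 13 genes were listed under 0.1 FPKM in every wild type heart and at 1 FPKM or more in every transgenic heart, and 0 genes showed the reverse. Both counts depend on these limits. Clcn1, described further on, missed them at 0.0644, 0.0607 and 0.337 FPKM in transgenic hearts 1 to 3 and 6.09 to 8.36 FPKM in wild type hearts.

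The largest rises were spread over secreted peptides, receptors and enzymes, many of them at a few FPKM or less in wild type hearts. Edn3, which encodes endothelin 3, a vasoactive peptide best known from neural crest and melanocyte development, was at 31.9, 24.2 and 34.6 FPKM in transgenic hearts 1 to 3 and at 0.538, 0.630, 0.197 and 0.277 FPKM in wild type hearts 1 to 4. Edn3 had a log2 difference of 4.51 ± 0.14 (SE, adjusted p = 1.3e-05). The related peptide Edn1 rose from 2.13 ± 0.418 to 7.54 ± 0.566 FPKM (log2 difference 1.44 ± 0.13). Dkk2, a secreted modulator of Wnt signalling, was at 35.6, 14.2 and 33.3 FPKM in transgenic hearts 1 to 3 and at 0, 0, 0.0483 and 0.0928 FPKM in wild type hearts 1 to 4, and Ostn, the muscle-derived peptide musclin or osteocrin that binds the natriuretic peptide clearance receptor, was at 33.7, 28.6 and 18.8 FPKM in transgenic hearts 1 to 3 and at 0, 0.0483, 0 and 0.00139 FPKM in wild type hearts 1 to 4. Both were listed under 0.1 FPKM in every wild type heart, so no fold is given. Their differences on the log2(FPKM + 1) scale were 4.73 and 4.79. The clearance receptor Npr3, also a marker of the endocardium, rose from 2.43 ± 0.439 to 36.9 ± 12.9 FPKM (log2 difference 3.44 ± 0.24). Edn3, Dkk2 and Ostn had a log2 difference of 6.09, 7.60 and 7.96 with a pseudocount of 0.1, in that order.

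Igsf23, an immunoglobulin superfamily member, was at 54.5, 52.2 and 47.3 FPKM in transgenic hearts 1 to 3 and at 0.528, 0.693, 1.40 and 0.557 FPKM in wild type hearts 1 to 4. Igsf23 had a log2 difference of 4.87 ± 0.17 (SE, adjusted p = 1.5e-05). Leprel1 (P3h2), a collagen prolyl 3-hydroxylase, rose from 1.21 ± 0.115 to 57.6 ± 10.4 FPKM (log2 difference 4.72 ± 0.14). Arid5a, an RNA-binding protein that stabilizes inflammatory transcripts, was at 49.8, 53.4 and 62.3 FPKM in transgenic hearts 1 to 3 and at 2.46, 3.54, 3.24 and 3.03 FPKM in wild type hearts 1 to 4. Arid5a had a log2 difference of 3.77 ± 0.12 (SE, adjusted p = 1.3e-05). Ror2, the receptor tyrosine kinase for Wnt5a, rose from 0.347 ± 0.112 to 16.4 ± 3.96 FPKM (log2 difference 3.67 ± 0.18), and its values lay in 2 bands with nothing between 0.51 and 11.8 FPKM. Dct, a melanin synthesis enzyme, rose from 1.37 ± 0.288 to 28.2 ± 7.24 FPKM (log2 difference 3.60 ± 0.20). Nlrc3, a member of the NOD-like receptor family, rose from 0.560 ± 0.0848 to 15.1 ± 3.31 FPKM (log2 difference 3.36 ± 0.15). Nmrk2, the muscle nicotinamide riboside kinase of NAD synthesis, rose from 2.2 ± 0.702 to 22.6 ± 4.70 FPKM (log2 difference 2.86 ± 0.20). Grk5, the receptor kinase that acts downstream of Gq-coupled receptors, rose from 10.1 ± 1.59 to 55.1 ± 6.76 FPKM (log2 difference 2.30 ± 0.11). Igsf23, Leprel1, Ror2, Dct and Nlrc3 had a log2 difference of 5.90, 5.45, 5.19, 4.24 and 4.53 with a pseudocount of 0.1, in that order.

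Among transcripts close to absent from wild type hearts, Wdr17 was at 6.11, 4.2 and 4.61 FPKM in transgenic hearts 1 to 3 and at 0.0182, 0.0126, 0.00139 and 0.00139 FPKM in wild type hearts 1 to 4, and Syndig1, a regulator of synaptic glutamate receptors, was at 6.26, 6.36 and 2.69 FPKM in transgenic hearts 1 to 3 and at 0, 0.0943, 0.0928 and 0.0295 FPKM in wild type hearts 1 to 4. Kcnma1, the large-conductance calcium-activated potassium channel, was at 2.19, 2.87 and 1.90 FPKM in transgenic hearts 1 to 3 and at 0, 0.0389, 0.0389 and 0.0224 FPKM in wild type hearts 1 to 4. Trpm6, a magnesium channel, was at 2.13, 1.52 and 2.39 FPKM in transgenic hearts 1 to 3 and at 0.0210, 0.0182, 0.00905 and 0.000693 FPKM in wild type hearts 1 to 4. All 4 lay under 0.1 FPKM in each wild type heart, so no fold is given. Their differences on the log2(FPKM + 1) scale were 2.58, 2.50, 1.68 and 1.57, in the order named. Wdr17, Syndig1, Kcnma1 and Trpm6 had a log2 difference of 5.58, 5.05, 4.25 and 4.24 with a pseudocount of 0.1, in that order.

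Among the largest falls were enzymes, ion channels and sarcomere proteins. Ces1d, a carboxylesterase that hydrolyses triglyceride, was at 5.28, 2.47 and 2.27 FPKM in transgenic hearts 1 to 3 and at 102, 79.3, 87.6 and 79.3 FPKM in wild type hearts 1 to 4. Ces1d had a log2 difference of -4.33 ± 0.18 (SE, adjusted p = 2.8e-05). Pla2g5, a secreted phospholipase A2, was at 1.25, 2.22 and 0.560 FPKM in transgenic hearts 1 to 3 and at 24.4, 22.1, 19.7 and 26.9 FPKM in wild type hearts 1 to 4. Pla2g5 had a log2 difference of -3.43 ± 0.25 (SE, adjusted p = 0.00017). The hearts of the 2 groups lay far apart for both. Pde1c, the calcium- and calmodulin-stimulated phosphodiesterase of cyclic nucleotides, was at 0.249, 0.203 and 0.288 FPKM in transgenic hearts 1 to 3 and at 10.5, 9.40, 8.51 and 9.71 FPKM in wild type hearts 1 to 4. Pde1c had a log2 difference of -3.06 ± 0.10 (SE, adjusted p = 1.3e-05). Tmod4, a tropomodulin that caps the pointed end of actin filaments in muscle, fell from 15.7 ± 1.62 to 1.46 ± 0.208 FPKM (log2 difference -2.72 ± 0.08). Kcnj3, which encodes a subunit of the acetylcholine-activated potassium channel, fell from 22.9 ± 1.66 to 4.98 ± 0.902 FPKM (log2 difference -1.98 ± 0.11). Crhr2, the urocortin receptor, fell from 13.7 ± 2.24 to 2.72 ± 0.630 FPKM (log2 difference -1.95 ± 0.15). Dhrs7c, a dehydrogenase of the sarcoplasmic reticulum, fell from 145 ± 22.1 to 35.0 ± 10.8 FPKM (log2 difference -2.01 ± 0.21). Fbp2, muscle fructose bisphosphatase, fell from 20.9 ± 2.11 to 3.29 ± 0.749 FPKM (log2 difference -2.34 ± 0.13). Doc2g, a double C2 domain protein, fell from 160.4 ± 16.0 to 29.4 ± 3.25 FPKM (log2 difference -2.42 ± 0.11). Slc36a2, a proton-coupled glycine and proline transporter, fell from 12.8 ± 1.52 to 1.36 ± 0.576 FPKM (log2 difference -2.53 ± 0.17). Myom2, the M-band protein M-protein, was at 20.2, 33.9 and 167 FPKM in transgenic hearts 1 to 3 and at 331, 339, 363 and 281 FPKM in wild type hearts 1 to 4. Transgenic heart 3 was the highest of its group by far, and every transgenic heart lay under every wild type heart. Myom2 had a log2 difference of -2.83 ± 0.60 (SE, adjusted p = 0.012). Myom2 was not called with no filter on low values (log2 difference -2.83, adjusted p 0.056). Myom2 was not called with day 158 hearts only (log2 difference -2.06, adjusted p 0.14). Myom2 was not called without transgenic heart 1 (log2 difference -2.06, adjusted p 0.086). Pla2g5, Pde1c and Slc36a2 had a log2 difference of -4.18, -4.78 and -3.16 with a pseudocount of 0.1, in that order. Myom2 had a log2 difference of -3.59 without transgenic heart 3.

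**Figure D2:**
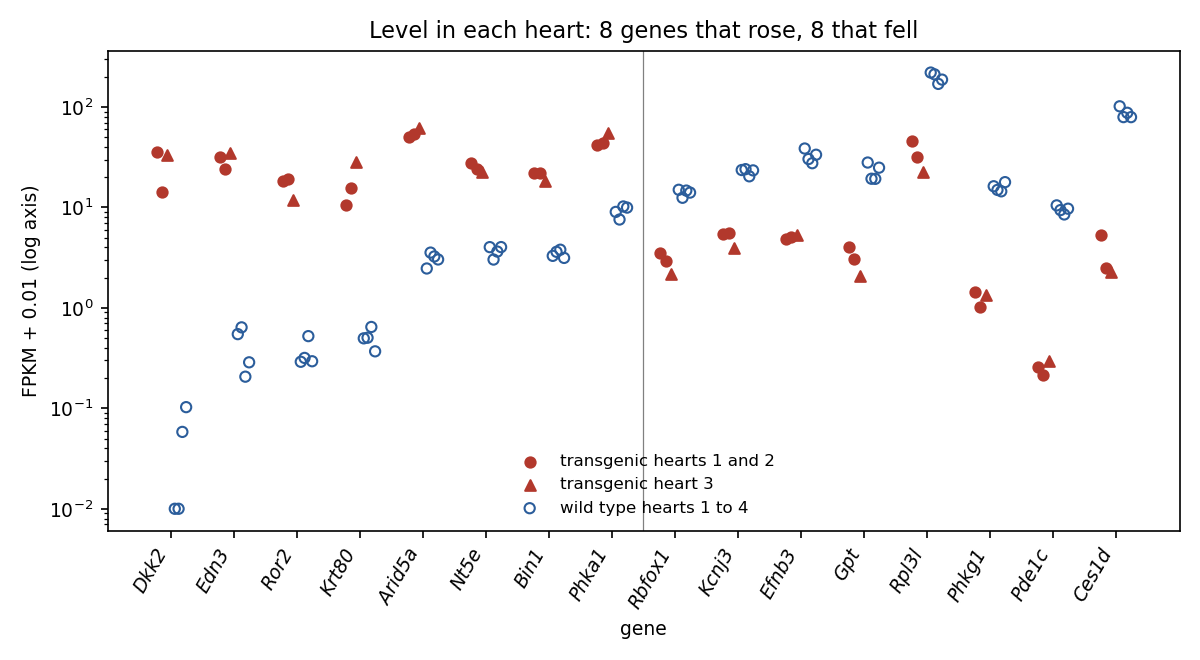
FPKM in each of the 7 hearts on a log axis (FPKM + 0.01) for 16 genes, 8 that rose and 8 that fell, with transgenic hearts as filled points (triangle for heart 3) and wild type hearts as open points. In each gene the 2 groups do not overlap, and among those shown the gap between the groups is widest for Dkk2 and Edn3 among rises and for Pde1c among falls.

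Measured as FPKM gained or lost, abundant transcripts come to the fore. Gpx3, the secreted glutathione peroxidase, was at 843, 818 and 909.8 FPKM in transgenic hearts 1 to 3 and at 86.1, 116, 115 and 92.3 FPKM in wild type hearts 1 to 4. Gpx3 had a log2 difference of 3.06 ± 0.13 (SE, adjusted p = 2.8e-05). It gained 754 FPKM in the mean. Ankrd1, a stretch-responsive nuclear and titin-associated ankyrin protein, was at 1422, 1729.5 and 1599 FPKM in transgenic hearts 1 to 3 and at 369.9, 558, 381 and 403 FPKM in wild type hearts 1 to 4, and Ankrd23, another titin-binding member of the same family, was at 456, 562 and 843 FPKM in transgenic hearts 1 to 3 and at 83.7, 113, 102 and 112 FPKM in wild type hearts 1 to 4. Ankrd1 gained 1156 FPKM and Ankrd23 518 FPKM in the mean. Tpm2, β-tropomyosin, was at 757, 748 and 479 FPKM in transgenic hearts 1 to 3 and at 11.3, 11.8, 14 and 13.7 FPKM in wild type hearts 1 to 4. It gained 649 FPKM. Gpi1, glucose phosphate isomerase, rose from 256 ± 12.1 to 659 ± 182 FPKM (log2 difference 1.36 ± 0.17). Mgp, the matrix Gla protein that inhibits calcification, rose from 304 ± 42.9 to 750.0 ± 89.0 FPKM (log2 difference 1.35 ± 0.08). Myl12a, a regulatory light chain of non-muscle myosin, rose from 499 ± 30.4 to 937 ± 14.1 FPKM (log2 difference 0.92 ± 0.07).

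On the losing side, the deposited values with the largest absolute fall were mitochondrially encoded transcripts and nuclear copies of mitochondrial DNA, whose reads cannot be assigned with certainty between each other. They are not described further. Among called nuclear protein-coding genes, Tnni3, cardiac troponin I, had a large loss, falling from 3087 ± 359.5 to 1918 ± 326 FPKM (log2 difference -0.64 ± 0.09). Cox7a1, a cytochrome c oxidase subunit in its muscle version, fell from 1425 ± 167 to 615 ± 220.0 FPKM (log2 difference -1.20 ± 0.20). Ckm, muscle creatine kinase, fell from 1298 ± 93.6 to 616 ± 118 FPKM (log2 difference -1.05 ± 0.11), and its mitochondrial partner Ckmt2 fell from 1005 ± 137 to 533 ± 164 FPKM (log2 difference -0.88 ± 0.14). Pln, phospholamban, the brake of the calcium pump, fell from 1740.5 ± 42.7 to 1292 ± 44.2 FPKM (log2 difference -0.43 ± 0.06). Cox7a1 and Pln were not called with day 158 hearts only (log2 difference -1.36 and -0.39, adjusted p 0.051 and 0.061). Pln was not called with equal totals (log2 difference -0.21, adjusted p 0.17).

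Heart muscle uses particular members of many gene families. Of 49 pairs of sister genes listed, with the form taken as the striated muscle or adult one first, 43 had both genes tested. Both were called in 17. In 7 the first form fell and the second rose, and in 0 the reverse occurred. In 4 both rose and in 6 both fell. The share of the first form in the pair's summed FPKM fell without overlap between the groups in 24 of 43 pairs and rose without overlap in 5. The pairs were chosen with earlier results known, and no test was made of these counts. In some pairs the second form is itself a muscle gene, such as Myh7, Casq1 and Fhl1. Others, such as Akt2 and Akt1, do not set a muscle form against a general one. The counts therefore do not measure a shift from muscle to general forms.

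In the ribosome, Rpl3l, the striated muscle copy of ribosomal protein L3, was at 46.3, 31.4 and 22.7 FPKM in transgenic hearts 1 to 3 and at 220.3, 212, 169.9 and 187 FPKM in wild type hearts 1 to 4, while the general form Rpl3 was at 226, 239 and 267 FPKM in transgenic hearts 1 to 3 and at 127, 130.2, 113 and 139 FPKM in wild type hearts 1 to 4. Rpl3l had a log2 difference of -2.50 ± 0.15 (SE, adjusted p = 8.7e-05). Rpl3 had a log2 difference of 0.93 ± 0.10 (SE, adjusted p = 0.00076). The share of Rpl3l fell from 60.7% ± 2.59 to 12.2% ± 4.63. Rpl3 has processed pseudogenes, so its level is less certain than the direction of Rpl3l. In glycolysis, Eno3, muscle enolase, fell from 837 ± 86.9 to 273 ± 104 FPKM (log2 difference -1.62 ± 0.22) and Eno1 rose from 118 ± 9.76 to 167 ± 12 FPKM (log2 difference 0.50 ± 0.09). The share of Eno3 fell from 87.6% ± 1.27 to 60.5% ± 8.63. Hk2, the insulin-regulated hexokinase, fell from 85.9 ± 5.85 to 59.7 ± 9.21 FPKM (log2 difference -0.54 ± 0.11) and Hk1 rose from 48.8 ± 4.65 to 110.1 ± 21.8 FPKM (log2 difference 1.11 ± 0.12), which took the share of Hk2 from 63.8% ± 1.79 to 35.5% ± 6.89. For glycogen phosphorylase, Pygm fell from 421 ± 3.85 to 288 ± 39.0 FPKM (log2 difference -0.54 ± 0.10) and Pygb rose from 261 ± 10.1 to 338 ± 33.5 FPKM (log2 difference 0.35 ± 0.08). Among glucose transporters, Slc2a4 (GLUT4) fell from 204 ± 8.30 to 111 ± 12.6 FPKM (log2 difference -0.86 ± 0.09) and Slc2a1 (GLUT1), the fetal form, rose from 8.82 ± 0.949 to 14.2 ± 2.61 FPKM (log2 difference 0.61 ± 0.14). Talin changed in the same sense, with Tln2 falling from 8.36 ± 0.495 to 5.73 ± 0.903 FPKM (log2 difference -0.52 ± 0.08) and Tln1 rising from 23.3 ± 1.89 to 31.3 ± 4.29 FPKM (log2 difference 0.36 ± 0.07). In troponin I, Tnni1, the slow skeletal and fetal form, rose from 0.342 ± 0.314 to 4.25 ± 0.680 FPKM (log2 difference 1.94 ± 0.18) and stayed under 1% of the pair. Eno1, Hk2, Pygm, Pygb, Slc2a1, Tln2 and Tln1 were not called with day 158 hearts only (log2 difference 0.45, -0.59, -0.62, 0.37, 0.65, -0.44 and 0.43, adjusted p 0.11, 0.095, 0.060, 0.12, 0.12, 0.094 and 0.074). Eno1, Pygb and Slc2a1 were not called without transgenic heart 1 (log2 difference 0.45, 0.37 and 0.65, adjusted p 0.058, 0.065 and 0.063). Hk2, Pygm and Tln2 were not called with equal totals (log2 difference -0.32, -0.32 and -0.33, adjusted p 0.16, 0.13 and 0.072). Pygb was not called without wild type heart 4 (log2 difference 0.34, adjusted p 0.057). Tnni1 had a log2 difference of 3.44 with a pseudocount of 0.1.

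Pairs with 1 called member included the splicing regulators Rbfox1 and Rbfox2. Rbfox1 was at 3.50, 2.90 and 2.16 FPKM in transgenic hearts 1 to 3 and at 15, 12.5, 14.7 and 14.1 FPKM in wild type hearts 1 to 4. Rbfox1 had a log2 difference of -1.96 ± 0.13 (SE, adjusted p = 0.00014). Rbfox2 was not called, and the share of Rbfox1 fell from 41.4% ± 2.29 to 11.1% ± 2.41. Fhl1, a LIM protein of the sarcomere and a stretch sensor, was at 277, 330.1 and 244 FPKM in transgenic hearts 1 to 3 and at 61.3, 55.8, 61.9 and 61.6 FPKM in wild type hearts 1 to 4, while Fhl2 was not called. The share of Fhl2 fell from 94.3% ± 0.788 to 74.4% ± 1.86. Not every pair moved to the second form. Flnc, the muscle filamin, rose from 48.1 ± 7.67 to 104 ± 12.8 FPKM (log2 difference 1.05 ± 0.09) with no call for Flna, and the share of Flnc rose from 55.4% ± 5.30 to 69.9% ± 0.693.

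**Figure D3:**
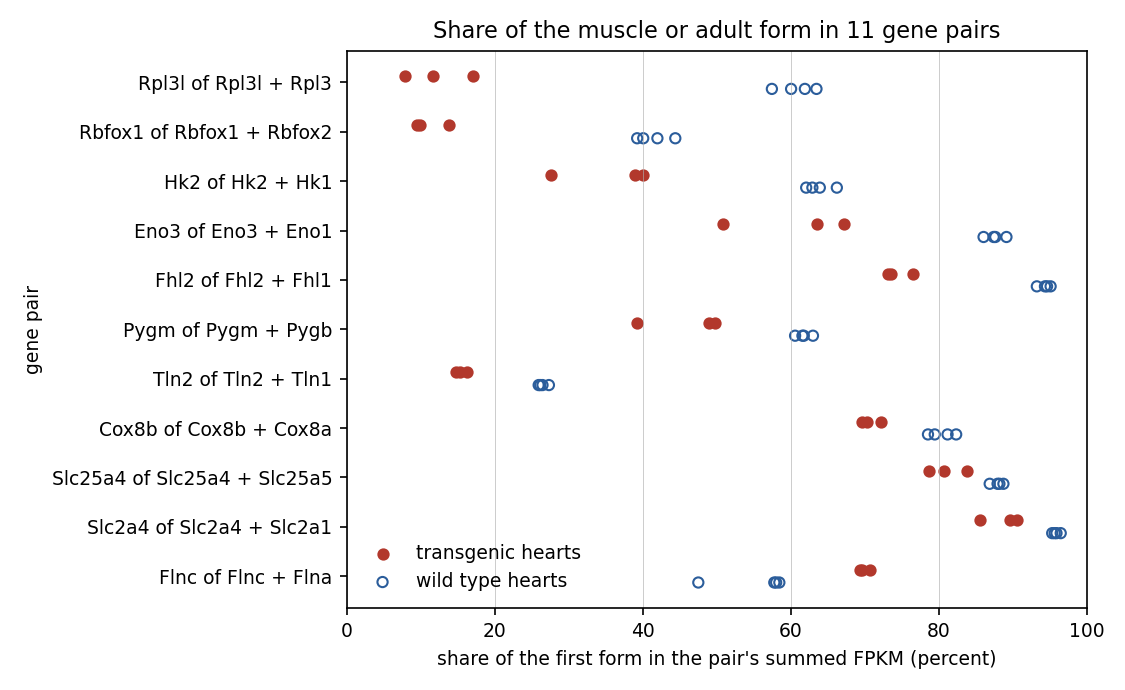
Share of the first form (taken as the muscle or adult one) in the summed FPKM of 11 gene pairs, in percent, for each transgenic heart (filled points) and wild type heart (open points). The share of Rpl3l falls from 60.7% to 12.2% in the mean, while that of Flnc in the filamin pair rises.

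Lists of marker genes for the cell types of the heart changed unequally. In bulk tissue fewer cells of a type and less RNA per cell cannot be told apart. Of 18 endothelial markers, 0 rose and 11 fell, with a median log2 difference of -0.66. Cdh5, VE-cadherin, fell from 50.6 ± 1.13 to 27.3 ± 3.44 FPKM (log2 difference -0.89 ± 0.09). Tie1, an endothelial receptor tyrosine kinase, fell from 25.9 ± 1.03 to 12.9 ± 0.462 FPKM (log2 difference -0.95 ± 0.07). Vwf, which is also endothelial but was not in that list, went the other way and rose from 22.9 ± 6.82 to 68.9 ± 24.8 FPKM (log2 difference 1.59 ± 0.26). Of 8 pericyte markers, 7 fell and 1 rose (median -0.79). Vtn, vitronectin, fell from 13.6 ± 1.15 to 3.93 ± 0.448 FPKM (log2 difference -1.56 ± 0.10). Kcnj8, the pore of the vascular ATP-sensitive potassium channel, was at 9.35, 10.5 and 9.53 FPKM in transgenic hearts 1 to 3 and at 22.5, 19.2, 21.4 and 20.6 FPKM in wild type hearts 1 to 4. Kcnj8 had a log2 difference of -1.03 ± 0.09 (SE, adjusted p = 0.00030). Cspg4 (NG2) was the one that rose, from 3.80 ± 0.623 to 9.88 ± 1.21 FPKM (log2 difference 1.15 ± 0.12). Of 14 fibroblast markers, 8 rose and 0 fell (median 0.82), among them Mfap5, a microfibril protein, which rose from 12.6 ± 2.62 to 55.7 ± 9.82 FPKM (log2 difference 2.09 ± 0.17). Of 5 endocardial markers 3 rose, and Cytl1 rose from 7.35 ± 0.637 to 29.4 ± 8.17 FPKM (log2 difference 1.84 ± 0.18). Vwf was not called with day 158 hearts only (log2 difference 1.65, adjusted p 0.055).

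Few markers of blood cells and of dividing cells were called. Of 16 macrophage markers, 1 rose and 0 fell (median 0.02), and the one was Lgals3, galectin 3, which rose from 2.73 ± 0.781 to 66.5 ± 21.8 FPKM (log2 difference 4.18 ± 0.24). Of 6 tested markers of dividing cells 0 were called by limma at an adjusted p under 0.05 (median 0.10), and 1 had an unadjusted p under 0.05. Without transgenic heart 3, 3 of these 6 markers were called higher. Of 12 cardiomyocyte markers, 0 rose and 4 fell (median -0.20, between -0.25 and 0.06 under the scalings). The summed FPKM of the endothelial markers was 674 to 933 in transgenic hearts and 982 to 1206 in wild type hearts, and that of the pericyte markers 156 to 189.6 in transgenic hearts and 264 to 304 in wild type hearts. Whether a change in the makeup of the tissue has a part in the gene differences below was not tested.

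**Figure D4:**
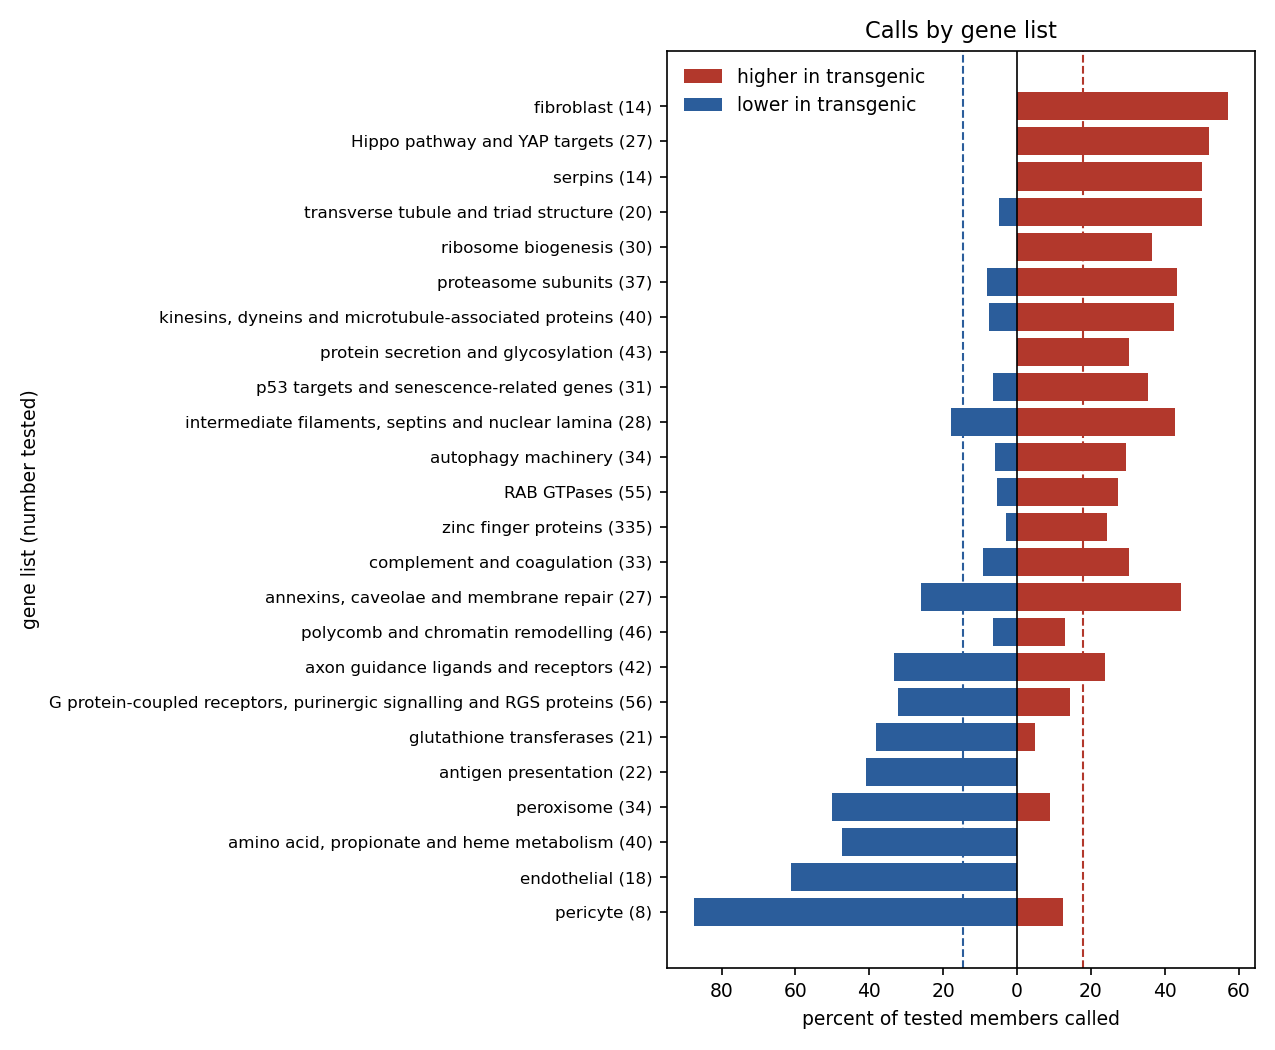
Percent of tested members called higher (right) or lower (left) in transgenic hearts for 24 gene lists, with the number tested in brackets. Dashed lines mark the shares over all 13305 genes, 17.9% higher and 14.7% lower.

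Proteasome subunits rose in a larger share than all genes did (17.9%). The proteasome degrades ubiquitin-tagged proteins through a catalytic core and a regulatory cap. Of 37 subunits, 16 rose and 3 fell (median 0.22). The risers were led by cap subunits such as Psmd8, which rose from 56.4 ± 4.99 to 94.9 ± 5.89 FPKM (log2 difference 0.76 ± 0.09), and Psmd11, which rose from 37.2 ± 2.53 to 58.1 ± 2.99 FPKM (log2 difference 0.61 ± 0.07). The largest fall was that of Psme1, an interferon-inducible activator subunit, which was at 32.2, 36.3 and 31.9 FPKM in transgenic hearts 1 to 3 and at 112, 104, 84.9 and 94.8 FPKM in wild type hearts 1 to 4. Psme1 had a log2 difference of -1.51 ± 0.10 (SE, adjusted p = 0.00014). Of 34 autophagy genes, 10 rose and 2 fell (median 0.10). Atg13, the adaptor of the ULK1 kinase that starts autophagosome formation, was at 79.1, 74.7 and 106 FPKM in transgenic hearts 1 to 3 and at 22.1, 21.1, 25.7 and 22.1 FPKM in wild type hearts 1 to 4. Atg13 had a log2 difference of 1.84 ± 0.13 (SE, adjusted p = 0.00015). Autophagy genes held 5 rises without transgenic heart 1 and 4 without wild type heart 4. Among lysosomal genes 7 of 32 rose and 4 fell (median 0.04), near the shares over all genes (17.9% and 14.7%). Ctsl, cathepsin L, rose from 76.4 ± 5.29 to 179 ± 56.8 FPKM (log2 difference 1.16 ± 0.20), and Ctsc, the dipeptidyl peptidase cathepsin C, fell from 15.1 ± 0.496 to 7.03 ± 0.860 FPKM (log2 difference -1.04 ± 0.08). Atp6v1h, a subunit of the vacuolar proton pump, rose from 12.7 ± 0.473 to 29.0 ± 0.642 FPKM (log2 difference 1.13 ± 0.07). Lysosomal genes held 4 rises without wild type heart 3 and 4 without wild type heart 4. Ctsl was not called with day 158 hearts only (log2 difference 1.16, adjusted p 0.082).

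In the early secretory pathway and in ribosome assembly no listed gene was called lower over all 7 hearts. Without transgenic heart 2, secretion genes held 11 rises and 1 fall and ribosome biogenesis genes 10 rises and 1 fall. Without wild type heart 1, ribosome biogenesis genes held 8 rises and 1 fall. Of 43 genes of protein secretion and glycosylation, 13 rose and 0 fell (median 0.22). Sec23b, a coat protein of vesicles that leave the endoplasmic reticulum, was at 26, 27.0 and 53.1 FPKM in transgenic hearts 1 to 3 and at 5.95, 7.85, 6.85 and 7.88 FPKM in wild type hearts 1 to 4. Sec23b had a log2 difference of 2.05 ± 0.24 (SE, adjusted p = 0.0011). Creb3l2, a membrane-bound transcription factor of secretory capacity, rose from 7.22 ± 0.732 to 15.3 ± 3.67 FPKM (log2 difference 0.90 ± 0.11), and Spcs3, a subunit of the signal peptidase, rose from 19.7 ± 1.27 to 35.9 ± 3.34 FPKM (log2 difference 0.83 ± 0.09). Secretion and glycosylation genes held 8 rises without transgenic heart 1 and 7 without wild type heart 4. Of 30 ribosome biogenesis genes, 11 rose and 0 fell (median 0.27). Nop58, a core protein of box C/D small nucleolar particles, rose from 10.7 ± 1.95 to 19.7 ± 0.337 FPKM (log2 difference 0.84 ± 0.14). Gnl3, nucleostemin, rose from 10.4 ± 0.853 to 16.4 ± 0.639 FPKM (log2 difference 0.62 ± 0.09). Ribosome biogenesis genes held 4 rises without transgenic heart 1, 5 without wild type heart 3 and 6 without wild type heart 4. Host transcripts of small nucleolar RNAs were also higher, with Snhg3 rising from 15.3 ± 1.86 to 34.3 ± 8.89 FPKM (log2 difference 1.11 ± 0.18) and Snhg5 rising from 5.99 ± 0.854 to 17.5 ± 4.56 FPKM (log2 difference 1.37 ± 0.17). Of 34 translation factors 6 rose and 4 fell (median 0.02), not above the shares over all genes (17.9% and 14.7%). Eif1a, which scans for the start codon, rose from 7.17 ± 0.668 to 15.3 ± 1.96 FPKM (log2 difference 0.98 ± 0.11). Among 31 cytosolic chaperones 9 rose and 3 fell (median 0.09). Hspa1a, the inducible Hsp70, rose from 2.35 ± 1.31 to 10.7 ± 3.54 FPKM (log2 difference 1.92 ± 0.29), and Dnajb4, one of its partners, rose from 61.1 ± 5.34 to 125 ± 17 FPKM (log2 difference 1.04 ± 0.11). Cytosolic chaperones held 3 rises without transgenic heart 1.

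The cytoskeleton of the transgenic hearts differed in motors, filaments and membrane anchors. Of 40 kinesins, dyneins and microtubule-associated proteins, 17 rose and 3 fell (median 0.25). Kif5b, the heavy chain of conventional kinesin, was at 60.9, 75.5 and 68.6 FPKM in transgenic hearts 1 to 3 and at 23, 28.0, 28.4 and 29.5 FPKM in wild type hearts 1 to 4. Kif5b had a log2 difference of 1.26 ± 0.09 (SE, adjusted p = 0.00016). Motor and microtubule genes held 11 rises without transgenic heart 1. Of 28 intermediate filament, septin and lamina genes, 12 rose and 5 fell (median 0.16). Krt80, a keratin of epithelia, was at 10.6, 15.7 and 28.0 FPKM in transgenic hearts 1 to 3 and at 0.488, 0.495, 0.636 and 0.359 FPKM in wild type hearts 1 to 4. Krt80 had a log2 difference of 3.51 ± 0.26 (SE, adjusted p = 0.00018). Lmna, which encodes lamins A and C of the nuclear envelope, rose from 51.4 ± 1.45 to 115 ± 17.6 FPKM (log2 difference 1.12 ± 0.10). Des, desmin, the filament that links Z-discs, rose from 501 ± 14.2 to 799.9 ± 108 FPKM (log2 difference 0.66 ± 0.10). Sept4, a septin, fell from 21.6 ± 1.57 to 11.9 ± 1.78 FPKM (log2 difference -0.84 ± 0.10). Filament, septin and lamina genes held 2 falls without transgenic heart 1 and 3 without wild type heart 3. Krt80 had a log2 difference of 4.78 with a pseudocount of 0.1.

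Of 61 genes of actin nucleation, bundling and filament control, LIM proteins included, 17 rose and 7 fell (median 0.13). Enah, an actin filament elongator of the Ena/VASP family, was at 121, 144 and 115 FPKM in transgenic hearts 1 to 3 and at 28.5, 30.5, 28.7 and 36.4 FPKM in wild type hearts 1 to 4. Enah had a log2 difference of 1.98 ± 0.12 (SE, adjusted p = 8.4e-05). Pdlim3, an α-actinin-binding LIM protein, rose from 7.08 ± 1.67 to 38.4 ± 5.46 FPKM (log2 difference 2.30 ± 0.18). Zyx, zyxin, a mechanosensor of adhesions, rose from 17.8 ± 0.722 to 66.4 ± 8.63 FPKM (log2 difference 1.86 ± 0.09). Csrp2, a LIM protein of smooth muscle, rose from 11.3 ± 1.31 to 33.6 ± 8.77 FPKM (log2 difference 1.5 ± 0.18). Ezr, ezrin, which links actin to the membrane, fell from 23.4 ± 2.68 to 7.92 ± 1.16 FPKM (log2 difference -1.47 ± 0.12). Actin and LIM genes held 4 falls without transgenic heart 1 and 12 without transgenic heart 2. Among 20 genes of transverse tubules and their junctions, 10 rose and 1 fell (median 0.20). Bin1, the membrane-bending protein that shapes transverse tubules, was at 22, 22.1 and 18.4 FPKM in transgenic hearts 1 to 3 and at 3.29, 3.61, 3.79 and 3.14 FPKM in wild type hearts 1 to 4. Bin1 had a log2 difference of 2.30 ± 0.10 (SE, adjusted p = 3.4e-05). Xirp1, an Xin repeat protein of the intercalated disc, rose from 38.9 ± 5.65 to 96.2 ± 8.18 FPKM (log2 difference 1.25 ± 0.10), and Xirp2 rose from 39.6 ± 4.44 to 101 ± 13.5 FPKM (log2 difference 1.32 ± 0.13). The Popeye proteins split, Popdc3 rising from 12.8 ± 0.651 to 35.8 ± 3.74 FPKM (log2 difference 1.42 ± 0.09) and Popdc2 falling from 232 ± 25.3 to 138 ± 9.07 FPKM (log2 difference -0.76 ± 0.09). Transverse tubule genes held 6 rises without transgenic heart 1. Of 27 genes of annexins, caveolae and membrane repair, 12 rose and 7 fell (median 0.26). The annexins Anxa1 and Anxa4 rose, Anxa1 from 11.2 ± 1.38 to 27.6 ± 4.59 FPKM (log2 difference 1.20 ± 0.13) and Anxa4 from 12.2 ± 0.803 to 25.8 ± 4.49 FPKM (log2 difference 1.02 ± 0.13). Of the caveolar genes, Cav2, caveolin 2, fell from 26.3 ± 1.60 to 14 ± 1.10 FPKM (log2 difference -0.86 ± 0.09). Annexin, caveola and repair genes held 3 falls without transgenic heart 1 and 4 without wild type heart 1.

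Of 27 genes of the Hippo pathway and its YAP targets, 14 rose and 0 fell (median 0.33, 0.28 to 0.50 under the scalings). YAP and TEAD proteins activate these targets when cells spread or are stretched. Nt5e (CD73), which makes adenosine outside cells, was at 27.8, 24.1 and 22.7 FPKM in transgenic hearts 1 to 3 and at 4.02, 3.02, 3.63 and 4.02 FPKM in wild type hearts 1 to 4. Nt5e had a log2 difference of 2.48 ± 0.12 (SE, adjusted p = 4.4e-05). Crim1, a transmembrane binder of bone morphogenetic proteins, rose from 10.6 ± 1.26 to 38.2 ± 4.34 FPKM (log2 difference 1.75 ± 0.12). Cyr61 (Ccn1), a matricellular protein, rose from 22.5 ± 4.04 to 64.0 ± 14.6 FPKM (log2 difference 1.46 ± 0.19). Amotl2, an angiomotin that retains YAP in the cytoplasm and is itself a YAP target, was at 51.7, 51.5 and 71.3 FPKM in transgenic hearts 1 to 3 and at 24.4, 25, 26.3 and 22.2 FPKM in wild type hearts 1 to 4. Amotl2 had a log2 difference of 1.19 ± 0.13 (SE, adjusted p = 0.00095). Hippo and YAP genes held 9 rises without transgenic heart 1.

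Other signalling lists moved in both directions. Of 51 MAP kinase and dual-specificity phosphatase genes, 14 rose and 7 fell (median 0.03). Rras2, a Ras-family GTPase, rose from 21.6 ± 1.44 to 45.7 ± 5.97 FPKM (log2 difference 1.04 ± 0.11), and Mapk14, p38α, fell from 28.3 ± 1.25 to 17.5 ± 1.15 FPKM (log2 difference -0.65 ± 0.08). MAP kinase and phosphatase genes held 6 rises without transgenic heart 1, and 3 falls without transgenic heart 1, 4 without wild type heart 1, 4 without wild type heart 3 and 4 without wild type heart 4. Of 40 PI3K and mTOR genes, 7 rose and 6 fell (median 0.08), near the shares over all genes (17.9% and 14.7%). Irs1, the insulin receptor substrate, was at 14, 15.7 and 10.03 FPKM in transgenic hearts 1 to 3 and at 1.60, 2.12, 3.03 and 2.75 FPKM in wild type hearts 1 to 4. Irs1 had a log2 difference of 2.04 ± 0.19 (SE, adjusted p = 0.00047). Akt2, the kinase isoform of insulin signalling, fell from 71.9 ± 3.44 to 45.6 ± 1.78 FPKM (log2 difference -0.65 ± 0.07). Of 41 AMP-activated kinase and phosphatase genes, 9 rose and 11 fell (median -0.02). The β subunits of AMP-activated kinase went opposite ways, Prkab2 rising from 14.3 ± 0.908 to 34.6 ± 6.74 FPKM (log2 difference 1.18 ± 0.12) and Prkab1 falling from 22.7 ± 1.62 to 12.2 ± 1.60 FPKM (log2 difference -0.87 ± 0.09). Ppm1e, a phosphatase that acts on that kinase and on calmodulin kinases, was at 13.1, 14.5 and 14.5 FPKM in transgenic hearts 1 to 3 and at 2.94, 2.75, 2.85 and 2.77 FPKM in wild type hearts 1 to 4. Ppm1e had a log2 difference of 1.97 ± 0.08 (SE, adjusted p = 2.8e-05). Ppp1r15a (GADD34), which reverses the block of translation under stress, rose from 14 ± 3.79 to 46.2 ± 7.52 FPKM (log2 difference 1.66 ± 0.21). Ppp1r14c, an inhibitor of protein phosphatase 1, fell from 85.8 ± 9.58 to 28.3 ± 6.94 FPKM (log2 difference -1.59 ± 0.17). PI3K and mTOR genes held 1 fall without transgenic heart 1, 3 without wild type heart 2, 3 without wild type heart 3 and 2 without wild type heart 4. AMP-activated kinase and phosphatase genes held 6 falls without transgenic heart 1.

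Growth factor and guidance genes changed in both directions. Hbegf, a ligand of the EGF receptor, was at 45.5, 51.1 and 32.6 FPKM in transgenic hearts 1 to 3 and at 5.82, 6.40, 6.48 and 6.61 FPKM in wild type hearts 1 to 4. Hbegf had a log2 difference of 2.57 ± 0.15 (SE, adjusted p = 9.3e-05). Fgfr1, a fibroblast growth factor receptor, rose from 10.8 ± 2.06 to 33.8 ± 2.22 FPKM (log2 difference 1.54 ± 0.13), and Fgf13, an intracellular member of the family that binds sodium channels, fell from 53.9 ± 8.12 to 28.3 ± 2.41 FPKM (log2 difference -0.95 ± 0.07). Bdnf, brain-derived neurotrophic factor, rose from 2.58 ± 0.711 to 9.72 ± 1.10 FPKM (log2 difference 1.58 ± 0.18). Of 42 axon guidance genes, 10 rose and 14 fell (median -0.21). Efnb3, ephrin B3, was at 4.79, 5.02 and 5.36 FPKM in transgenic hearts 1 to 3 and at 38.6, 30.3, 27.6 and 33.5 FPKM in wild type hearts 1 to 4. Efnb3 had a log2 difference of -2.45 ± 0.12 (SE, adjusted p = 4.9e-05). Nrp1, a co-receptor of VEGF and semaphorins, fell from 39.4 ± 2.95 to 17.1 ± 3.15 FPKM (log2 difference -1.18 ± 0.13). Efna5, ephrin A5, rose from 2.66 ± 0.308 to 7.42 ± 1.65 FPKM (log2 difference 1.22 ± 0.14). Angpt1, the ligand of the endothelial receptor Tie2, fell from 10.8 ± 1.65 to 1.98 ± 0.290 FPKM (log2 difference -1.94 ± 0.11). Of 41 adhesion genes 10 rose and 9 fell (median -0.06). Cd44, the hyaluronan receptor, rose from 1.99 ± 0.351 to 8.75 ± 0.483 FPKM (log2 difference 1.68 ± 0.10), and Cadm4, an immunoglobulin-type adhesion molecule, fell from 9.47 ± 1.43 to 1.26 ± 0.137 FPKM (log2 difference -2.2 ± 0.13). Axon guidance genes held 6 rises without wild type heart 4, and 9 falls without transgenic heart 1. Adhesion genes held 6 rises without transgenic heart 1, and 5 falls without transgenic heart 1. Cadm4 had a log2 difference of -2.80 with a pseudocount of 0.1.

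Among G protein-coupled receptors, genes of purinergic signalling and RGS regulators of G proteins, 18 of 56 fell and 8 rose (median -0.22). Ptgfr, the receptor of prostaglandin F2α, was at 22.1, 19.3 and 8.28 FPKM in transgenic hearts 1 to 3 and at 1.14, 0.781, 1.48 and 1.30 FPKM in wild type hearts 1 to 4. Ptgfr had a log2 difference of 2.94 ± 0.32 (SE, adjusted p = 0.00084). P2rx5, an ATP-gated channel, rose from 7.36 ± 1.23 to 18.1 ± 1.95 FPKM (log2 difference 1.23 ± 0.11). Entpd5, a nucleoside diphosphatase of the endoplasmic reticulum, was at 10.8, 11.6 and 8.71 FPKM in transgenic hearts 1 to 3 and at 44.8, 41.8, 41.5 and 54.4 FPKM in wild type hearts 1 to 4. Entpd5 had a log2 difference of -2.05 ± 0.13 (SE, adjusted p = 0.00013). Gnao1, the Go α subunit, rose from 8.79 ± 0.780 to 21.3 ± 3.47 FPKM (log2 difference 1.15 ± 0.11). This list of receptors, purinergic genes and RGS proteins held 10 falls without transgenic heart 1. Ptgfr had a log2 difference of 3.62 with a pseudocount of 0.1.

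Transcription factor lists were mixed, and single members changed strongly. Of 55 bHLH, bZIP and ETS factors 16 rose and 9 fell (median 0.10). Scx, scleraxis, a factor of tendon and of matrix-producing cells, was at 25.3, 31.0 and 38.4 FPKM in transgenic hearts 1 to 3 and at 2.78, 4.55, 4.68 and 4.95 FPKM in wild type hearts 1 to 4. Scx had a log2 difference of 2.57 ± 0.15 (SE, adjusted p = 7.8e-05). Myc, a growth-promoting factor, rose from 1.5 ± 0.702 to 7.07 ± 2.14 FPKM (log2 difference 1.64 ± 0.25). Mafk, a small Maf protein, rose from 18.6 ± 2.91 to 54.1 ± 7.62 FPKM (log2 difference 1.51 ± 0.15). The clock-output factor Hlf fell from 12.5 ± 1.56 to 5.57 ± 1.26 FPKM (log2 difference -1.07 ± 0.15) and Tcf15, a factor of capillary endothelium in the heart, fell from 29.1 ± 1.33 to 13.1 ± 0.934 FPKM (log2 difference -1.08 ± 0.08). Of 48 KLF, SOX, FOX and homeobox factors 10 rose and 9 fell (median 0.08), near the shares over all genes (17.9% and 14.7%). Hopx, a homeodomain-only cofactor of cardiomyocyte maturation, was at 95.9, 93.7 and 75.2 FPKM in transgenic hearts 1 to 3 and at 249, 263, 216 and 284 FPKM in wild type hearts 1 to 4. Hopx had a log2 difference of -1.49 ± 0.12 (SE, adjusted p = 0.00030). Prrx1, a homeobox factor of mesenchyme, fell from 13.1 ± 1.26 to 5.73 ± 0.342 FPKM (log2 difference -1.09 ± 0.08). Of 46 polycomb and chromatin genes 6 rose and 3 fell (median 0.08), below the shares over all genes (17.9% and 14.7%). Hmgn3, a nucleosome-binding protein, had the largest change of the list and rose from 6.19 ± 1.48 to 40.2 ± 16.2 FPKM (log2 difference 2.55 ± 0.20). KLF, SOX, FOX and homeobox factors held 2 rises without transgenic heart 1, 6 without wild type heart 2, 6 without wild type heart 3 and 4 without wild type heart 4, and 5 falls without transgenic heart 1. Polycomb and chromatin genes held 3 rises without wild type heart 3 and 3 without wild type heart 4.

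The zinc finger proteins, defined by their symbols, are a large family of DNA-binding factors. Of 335 tested, 82 rose and 10 fell (median 0.19, 0.13 to 0.36 under the scalings), and all transgenic hearts lay above all wild type hearts in 126 and below them in 30. Their median level, from plain means of FPKM over the 7 hearts, was 3.47 FPKM. Among all genes between 3 and 10 FPKM, by means on the log2 scale, 18.7% rose and 11.9% fell. Zfp568, a KRAB protein, was at 17.7, 17.9 and 15.1 FPKM in transgenic hearts 1 to 3 and at 4.22, 4.61, 5.21 and 4.78 FPKM in wild type hearts 1 to 4. Zfp568 had a log2 difference of 1.64 ± 0.10 (SE, adjusted p = 9.5e-05). Zfp36l1, which binds AU-rich elements and speeds mRNA decay, rose from 23.2 ± 4.15 to 55.2 ± 7.82 FPKM (log2 difference 1.18 ± 0.12). Zinc finger proteins held 28 rises without transgenic heart 1, 51 without wild type heart 1, 46 without wild type heart 3 and 39 without wild type heart 4, and 2 falls without transgenic heart 1, 4 without wild type heart 1, 5 without wild type heart 2, 4 without wild type heart 3 and 6 without wild type heart 4. Over all genes 1285 of 13143 rose without transgenic heart 1 and 1536 of 13222 without wild type heart 4. In these 2 fits the zinc finger rises were near or below the share over all genes. RAB GTPases and their effectors showed 15 of 55 higher and 3 lower (median 0.20), sorting nexins and VPS proteins 8 of 56 higher (under the background of 17.9%) and 0 lower (0.11), and Mediator subunits 8 of 31 higher and 0 lower (0.13). RAB GTPases held 7 rises without transgenic heart 1. Sorting nexins and VPS proteins held 3 rises without transgenic heart 1. Mediator subunits held 1 rise without transgenic heart 1, 4 without transgenic heart 2, 5 without wild type heart 1, 5 without wild type heart 2, 4 without wild type heart 3 and 4 without wild type heart 4.

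Of 31 p53 targets and genes linked to senescence, 11 rose and 2 fell (median 0.18). Gadd45g, a stress-induced partner of MAP kinase kinases, was at 47.0, 58.2 and 52.5 FPKM in transgenic hearts 1 to 3 and at 21.9, 13.8, 8.51 and 19.6 FPKM in wild type hearts 1 to 4. Gadd45g had a log2 difference of 1.76 ± 0.30 (SE, adjusted p = 0.0050). Plk2, a polo-like kinase, rose from 11.3 ± 1.35 to 30.9 ± 1.95 FPKM (log2 difference 1.35 ± 0.09), and Gadd45a, of the same family as Gadd45g, fell from 19.7 ± 2.92 to 7.40 ± 0.183 FPKM (log2 difference -1.28 ± 0.12). Btg2, an antiproliferative gene, rose from 14.3 ± 2.15 to 37.7 ± 3.98 FPKM (log2 difference 1.36 ± 0.13). The p53 targets and senescence-related genes held 7 rises without wild type heart 4.

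Lists of amino acid metabolism, peroxisomes and glutathione transferases held more falls than rises. Of 40 genes of amino acid, propionate and heme metabolism, 0 rose and 19 fell (median -0.32). Gpt, alanine transaminase, was at 4.06, 3.03 and 2.06 FPKM in transgenic hearts 1 to 3 and at 28.0, 19.3, 19.3 and 24.9 FPKM in wild type hearts 1 to 4. Gpt had a log2 difference of -2.53 ± 0.19 (SE, adjusted p = 0.00018). Its mitochondrial counterpart Gpt2 fell from 15.2 ± 1.60 to 6.40 ± 1.97 FPKM (log2 difference -1.10 ± 0.13), and Got2, mitochondrial aspartate transaminase, fell from 386 ± 13.9 to 230.4 ± 20.3 FPKM (log2 difference -0.75 ± 0.08). Alad, the second enzyme of heme synthesis, fell from 29.3 ± 3.58 to 13.8 ± 2.42 FPKM (log2 difference -1.0 ± 0.13). Of 34 peroxisomal genes, 3 rose and 17 fell (median -0.28). Pex11a, which divides peroxisomes, fell from 11.9 ± 0.564 to 5.18 ± 0.361 FPKM (log2 difference -1.06 ± 0.08), and Pxmp2, a channel of their membrane, fell from 73.8 ± 6.86 to 39.8 ± 2.98 FPKM (log2 difference -0.84 ± 0.07). Peroxisomal genes held 7 falls without transgenic heart 1, 10 without wild type heart 1, 9 without wild type heart 2, 9 without wild type heart 3 and 7 without wild type heart 4. Of 21 glutathione transferases 1 rose and 8 fell (median -0.46), with Gstk1 falling from 76.0 ± 8.54 to 36.4 ± 3.63 FPKM (log2 difference -1.0 ± 0.07). Glutathione peroxidases went the other way in the secreted Gpx3, given above, and in Gpx8 of the endoplasmic reticulum, which rose from 22.2 ± 2.07 to 47.8 ± 8.33 FPKM (log2 difference 1.08 ± 0.13). Glutathione transferases held 5 falls without transgenic heart 1.

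Glycogen and nucleotide metabolism changed member by member. Phosphorylase kinase, which activates glycogen phosphorylase, is built of α, β, γ and calmodulin subunits. Its muscle α subunit Phka1 was at 42.3, 44.2 and 55.3 FPKM in transgenic hearts 1 to 3 and at 9.02, 7.57, 10.2 and 9.96 FPKM in wild type hearts 1 to 4, and its muscle γ subunit Phkg1 was at 1.44, 1.02 and 1.32 FPKM in transgenic hearts 1 to 3 and at 16.3, 14.9, 14.5 and 17.9 FPKM in wild type hearts 1 to 4. Phka1 had a log2 difference of 2.2 ± 0.10 (SE, adjusted p = 4.1e-05). Phkg1 had a log2 difference of -2.90 ± 0.11 (SE, adjusted p = 2.7e-05). The catalytic and a regulatory subunit of 1 enzyme thus moved in opposite directions. Ppp1r3b, a glycogen-targeting subunit of protein phosphatase 1, fell from 12.4 ± 0.608 to 3.96 ± 0.294 FPKM (log2 difference -1.43 ± 0.08). Pmm1, a phosphomannomutase of glycosylation, rose from 13.6 ± 1.93 to 95.1 ± 7.49 FPKM (log2 difference 2.75 ± 0.11). In nucleotide salvage, 5 of 34 genes rose and 7 fell (background 17.9% and 14.7%). Uck2, uridine-cytidine kinase, was at 38.1, 45.3 and 32.4 FPKM in transgenic hearts 1 to 3 and at 9.48, 10.2, 10.3 and 9.69 FPKM in wild type hearts 1 to 4. Uck2 had a log2 difference of 1.84 ± 0.12 (SE, adjusted p = 0.00012). Prps2, which makes phosphoribosyl pyrophosphate, rose from 5.66 ± 0.659 to 12.6 ± 0.361 FPKM (log2 difference 1.06 ± 0.08), and Nt5c1a, the muscle AMP nucleotidase, fell from 8.11 ± 2.87 to 2.26 ± 0.924 FPKM (log2 difference -1.56 ± 0.19). Of 19 genes of the polyamine and methionine cycle 4 rose and 4 fell (background 17.9% and 14.7%), too few to carry a direction. Odc1, which starts polyamine synthesis, rose from 30.5 ± 1.47 to 52.3 ± 5.83 FPKM (log2 difference 0.77 ± 0.09) and Sms, spermine synthase, rose from 24.6 ± 2.98 to 48.0 ± 3.26 FPKM (log2 difference 0.98 ± 0.08). Mtr, methionine synthase, fell from 12.2 ± 1.14 to 5.06 ± 0.938 FPKM (log2 difference -1.15 ± 0.12). Nucleotide genes held 3 falls without transgenic heart 1, 4 without wild type heart 2 and 4 without wild type heart 3. Phkg1 had a log2 difference of -3.55 with a pseudocount of 0.1.

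Transport of amino acids, water, ions and protons also changed. Slc38a2, the glutamine transporter SNAT2, rose from 39.95 ± 3.81 to 95.5 ± 16.2 FPKM (log2 difference 1.21 ± 0.13), and Slc7a1, the cationic amino acid transporter, fell from 13.3 ± 3.78 to 5.70 ± 0.141 FPKM (log2 difference -1.12 ± 0.15). Of 12 carbonic anhydrase and aquaporin genes 3 rose and 8 fell (median -0.80). Aqp1, the water channel of capillary endothelium, was at 54.1, 53.7 and 52.7 FPKM in transgenic hearts 1 to 3 and at 212, 184, 136 and 131 FPKM in wild type hearts 1 to 4. Aqp1 had a log2 difference of -1.53 ± 0.12 (SE, adjusted p = 0.00028). Aqp7, a glycerol channel, fell from 11.2 ± 1.65 to 2.63 ± 0.793 FPKM (log2 difference -1.75 ± 0.19). Carbonic anhydrases and aquaporins held 5 falls without transgenic heart 1 and 5 without wild type heart 4. Fxyd6, a regulator of the sodium pump, rose from 12.8 ± 0.730 to 39.1 ± 3.10 FPKM (log2 difference 1.51 ± 0.07). Clic5, a chloride channel protein, rose from 56.0 ± 7.60 to 147 ± 14.1 FPKM (log2 difference 1.34 ± 0.10). Clcn1, the chloride channel of skeletal muscle, was at 0.0644, 0.0607 and 0.337 FPKM in transgenic hearts 1 to 3 and at 8.36, 8.04, 6.09 and 7.24 FPKM in wild type hearts 1 to 4. Clcn1 had a log2 difference of -2.85 ± 0.14 (SE, adjusted p = 4.9e-05). Of 36 genes of retinoid, steroid, prostaglandin and nitric oxide metabolism 11 rose and 4 fell (median 0.20). Aldh1a1, a retinaldehyde dehydrogenase, rose from 7.59 ± 1.64 to 22 ± 4.98 FPKM (log2 difference 1.46 ± 0.18), and Alox5, arachidonate 5-lipoxygenase, fell from 7.56 ± 0.778 to 1.92 ± 0.329 FPKM (log2 difference -1.57 ± 0.12). Retinoid, steroid and prostaglandin genes held 7 rises without wild type heart 3 and 7 without wild type heart 4. Clcn1 had a log2 difference of -5.06 with a pseudocount of 0.1.

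No serpin fell and no antigen presentation gene rose. Of 14 serpins, 7 rose and 0 fell (median 0.34). Serpinf1 (PEDF), a secreted inhibitor of vessel growth, was at 54.3, 62.4 and 51.6 FPKM in transgenic hearts 1 to 3 and at 16.1, 16.1, 18.7 and 16.0 FPKM in wild type hearts 1 to 4. Serpinf1 had a log2 difference of 1.67 ± 0.09 (SE, adjusted p = 7.5e-05). Of 33 complement and coagulation genes 10 rose and 3 fell (median 0.10), and Tfpi, the tissue factor pathway inhibitor, fell from 44.8 ± 0.626 to 24.9 ± 1.47 FPKM (log2 difference -0.82 ± 0.07). Of 22 antigen presentation genes 0 rose and 9 fell (median -0.61). H2-Q4, a class I gene, fell from 36.0 ± 6.94 to 19.5 ± 1.61 FPKM (log2 difference -0.81 ± 0.14), although reads of the class I genes can be shared between them. Nlrc5, the transactivator of class I genes, fell from 3.76 ± 1.69 to 1.16 ± 0.456 FPKM (log2 difference -1.02 ± 0.21). Il15, a cytokine of natural killer and T cells, fell from 14.6 ± 2.56 to 3.98 ± 0.980 FPKM (log2 difference -1.58 ± 0.12). Antigen presentation genes held 1 fall without transgenic heart 1, 5 without wild type heart 3 and 5 without wild type heart 4. Nlrc5 was not called with day 158 hearts only (log2 difference -0.91, adjusted p 0.073). Nlrc5 was not called without transgenic heart 1 (log2 difference -0.91, adjusted p 0.082).

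The effect of the transgene was compared between the 2 ages with an interaction term, and 0 of 13305 genes were called at an adjusted p under 0.05 (limma). The smallest adjusted p was 0.20, and 390 genes had an unadjusted p under 0.05. Only transgenic heart 1 represents the transgenic group at day 125. Fits without 1 heart gave between 0 and 6 genes (6 without transgenic heart 2), and without transgenic heart 1 the term cannot be fitted. The called gene with the smallest interaction p among those listed above 0 in every heart was Sik1, the salt-inducible kinase 1, which was at 27.4, 34.4 and 29.3 FPKM in transgenic hearts 1 to 3 and at 24.1, 23.1, 10.2 and 10.2 FPKM in wild type hearts 1 to 4. Wild type hearts at day 158 were lower than those at day 125, while the transgenic hearts lay between 27.4 and 34.4 FPKM at both days. The difference of the 2 effects was 1.33 on the log2 scale (adjusted p = 0.59). The call of Sik1 between the groups (log2 difference 1.01) was lost with no filter on low values, with no term for day, without transgenic heart 2 and without wild type heart 3 or 4 (adjusted p 0.056 to 0.086). The other named genes are read as differences over both days.

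Strand is not kept by the library kit, so a gene whose exons overlap another gene's cannot be told apart from it. Among the genes named, this holds for Angpt1, Ankrd23, Anxa4, Atp6v1h, Bdnf, Bin1, Ckm, Ckmt2, Clcn1, Crim1, Ctsl, Des, Doc2g, Edn1, Ezr, Fgfr1, Gadd45a, Gnao1, Gnl3, Got2, Gpi1, H2-Q4, Hk1, Hmgn3, Hopx, Hspa1a, Irs1, Kcnj3, Kcnma1, Kif5b, Krt80, Mafk, Myl12a, Nlrc5, Nmrk2, Nop58, Npr3, Nrp1, Ostn, Phkg1, Pln, Popdc2, Popdc3, Ppp1r14c, Ppp1r15a, Prkab2, Psme1, Ptgfr, Pxmp2, Rpl3, Sept4, Slc2a1, Snhg3, Snhg5, Spcs3, Syndig1, Tln1, Tnni3, Uck2, Xirp2, Zfp36l1 and Zyx, all of which share at least 1 exonic base with another annotated gene of GENCODE M21, many over a small part of their length.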

How the data were processed

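Heart RNA of 3 transgenic and 4 wild type mice, all given vehicle, was compared, grouped by the labels. The deposited values are log2 FPKM, 1 file per heart, per the file headers. Their lowest value is exactly 0, so they were read as log2(FPKM + 1), and no scaling between hearts is stated. The submitters' processing notes name STAR 2.7.1a, Picard, GATK 4.1.2, Cufflinks 2.2.1 and the build GRCm38, with no roles; the annotation is not given in the sources used here. FPKM divides by length and total, so a few very abundant transcripts can shift all others, and it keeps no read totals.

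Genes that reached 1 FPKM in 2 or more of the 7 hearts were fitted with limma 3.58.1 (R 4.3.3) on log2(FPKM + 1), with terms for group and day and a trended variance prior. The fit had 4 residual degrees of freedom. Two-sided p-values were adjusted over the tested genes (Benjamini-Hochberg), and those under 0.05 were called. The difference between ages was tested as an interaction term. Alternatives changed the pseudocount, filter, scaling, variance prior, day term and hearts used. On simulated hearts for this comparison (13305 genes, 200 changed, 5 runs), recovery was 24.4% for a log2 change of 0.5, 79.6% for 1 and 97.2% for 2, and 5.18% of calls were false. The simulated noise was independent between hearts, and far fewer genes changed than were called in the data. These shares therefore do not carry over to the 4331 calls.

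Named genes were taken from the largest fitted differences, the largest gains and losses in FPKM, genes near absent in 1 group, up to 5 called members of each list in each direction, and the pairs. Members and lists were chosen with earlier results of these data known. Gene types, positions and exon overlaps came from GENCODE M21 and promoters from RefSeq (GRCm38.p6). Some genes are not reported here.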

Additional observations from a re-analysis of the deposited data

Results flagged for a closer look

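In 8 of the 190 genes named in the text, 1 of the 4 wild type hearts lay far from the other 3, with a gap to its nearest neighbour that exceeded Dixon's 95% critical value for 4 samples. The test flags about 1 in 20 groups by chance, so about as many are given by chance alone. It cannot be made for 3 transgenic hearts. Wild type heart 1 was low in Scx at 2.78 FPKM (group median 4.62) and high in Anxa4 at 13.4 FPKM (median 11.8). Wild type heart 2 was low in Fhl1 at 55.8 FPKM (median 61.4) and high in Adamts7 at 8.51 FPKM (median 7.91). It was also high in Ostn at 0.0483 FPKM, far under the transgenic hearts. Wild type heart 3 was low in Alad at 23.9 FPKM (median 31.0), high in Ror2 at 0.514 FPKM (median 0.296) and high in Serpinf1 at 18.7 FPKM (median 16.1). In each of the 8 genes the outlying heart stayed on the wild type side of every transgenic heart.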

How the results depend on the processing

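Read totals are unknown, 3 hearts against 4 limit the precision, and 1 transgenic heart stands for day 125. The number of genes called at least 2-fold lay between 621 and 1240 under all alternatives, against 840. With equal totals 3895 genes were called higher and 895 lower. With day 158 hearts only, which leaves 4 hearts, 1299 genes were called, 715 higher and 584 lower. Leaving out 1 heart at a time gave 2305 genes (without transgenic heart 1) to 4714 (without transgenic heart 3), with 1285 to 2572 higher and 1020 to 2142 lower, and without wild type heart 4 1536 were higher. The difference between ages was called in 0 to 6 genes, and it could not be fitted without transgenic heart 1. Apart from these and the replicate block with day, the counts of calls in each direction stayed within 1.5 times those reported in each alternative. In all, 865 genes (472 higher and 393 lower) were called in every alternative that tested them. In the fits without 1 heart, 2036 (1104 and 932) were called in each fit that tested them. No named gene changed direction.

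Replicate numbers are shared between the groups, but same-numbered hearts deviated together only weakly (correlations 0.090, 0.021 and 0.206), so the numbers do not pair the samples. With the replicate block beside day, which leaves 1 residual degree of freedom, 1224 genes were called, 591 higher and 633 lower. With the block in place of day 3566 were called.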

Other observations

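Single changes also stood out in families that were not among the gene lists above. Of 23 ADAM and ADAMTS proteases and their relatives, 8 rose and 3 fell. Adamtsl2, which binds latent TGF-β-binding protein in microfibrils, was at 60.1, 52.1 and 21.7 FPKM in transgenic hearts 1 to 3 and at 9.11, 6.03, 3.93 and 3.17 FPKM in wild type hearts 1 to 4. Adamtsl2 had a log2 difference of 2.91 ± 0.29 (SE, adjusted p = 0.00061). Adamts7 fell from 8.06 ± 0.307 to 2.96 ± 0.790 FPKM (log2 difference -1.19 ± 0.14). Of 38 kelch-like proteins, adaptors of the cullin 3 ubiquitin ligase, 7 rose and 7 fell, near the shares over all genes (17.9% and 14.7%). Klhl40, which stabilizes thin filament proteins, rose from 11.4 ± 1.06 to 23.8 ± 3.30 FPKM (log2 difference 0.97 ± 0.11), and Klhl23 fell from 14.5 ± 2.26 to 4.1 ± 0.934 FPKM (log2 difference -1.66 ± 0.13). Of 25 histone genes 7 rose and 0 fell, although most histone transcripts lack a poly(A) tail and near-identical copies share reads. ADAM and ADAMTS proteases held 3 rises without transgenic heart 1. Kelch-like proteins held 4 rises without transgenic heart 1, and 4 falls without transgenic heart 1.

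Some genes that rose lie beside each other on the chromosome, in places chosen here after their values were seen. Whether neighbours rose together more often than other genes was not tested. Car9, Arhgef39, Fjx1 and Slc1a2 were under 1 FPKM in every wild type heart and passed the filter only through the transgenic hearts. Their calls therefore carry no weight for a shared rise of neighbours. On chromosome 4, Tpm2 (chr4:43514711-43523765) lies beside Car9 (chr4:43506966-43513729), a carbonic anhydrase, and Arhgef39 (chr4:43496142-43499695). Car9 was at 4.32, 5.31 and 1.78 FPKM in transgenic hearts 1 to 3 and at 0.0695, 0.0785, 0.206 and 0.143 FPKM in wild type hearts 1 to 4. Car9 had a log2 difference of 2.02 ± 0.28 (SE, adjusted p = 0.0022). Arhgef39 was at 5.32, 5.50 and 1.73 FPKM in transgenic hearts 1 to 3 and at 0.945, 0.370, 0.0875 and 0.429 FPKM in wild type hearts 1 to 4. Arhgef39 had a log2 difference of 1.83 ± 0.31 (SE, adjusted p = 0.0049). Both stayed under 6 FPKM where Tpm2 was far higher, and transgenic heart 3 was the lowest of its group in all 3 genes. Exons of Car9 and of a predicted gene beside it overlap. On chromosome 2, Cd44, given above, lies near Ldlrad3, Fjx1, Pamr1, Slc1a2 and Trim44. Of 1121 tested genes of chromosome 2, 197 rose (17.6%), against 17.9% over all genes. Ldlrad3 rose from 1.76 ± 0.258 to 10.3 ± 1.27 FPKM (log2 difference 2.01 ± 0.12). Fjx1, a secreted growth regulator, rose from 0.231 ± 0.113 to 2.44 ± 0.674 FPKM (log2 difference 1.45 ± 0.16). Pamr1 rose from 0.948 ± 0.261 to 5.62 ± 0.165 FPKM (log2 difference 1.75 ± 0.12). Slc1a2, a glutamate transporter, rose from 0.113 ± 0.0745 to 1.44 ± 0.381 FPKM (log2 difference 1.13 ± 0.15). Trim44, which lies among them, rose less, from 13.1 ± 0.276 to 17.5 ± 2.60 FPKM (log2 difference 0.37 ± 0.10), and its call was lost with no filter on low values, with day 158 hearts only, without transgenic heart 1 and without each wild type heart in turn (adjusted p 0.052 to 0.12). Car9 and Arhgef39 were not called with day 158 hearts only (log2 difference 1.83 and 1.76, adjusted p 0.056 and 0.073). Car9, Arhgef39, Fjx1, Pamr1 and Slc1a2 had a log2 difference of 3.99, 3.19, 2.91, 2.43 and 2.85 with a pseudocount of 0.1, in that order.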
